A study of Homo sapiens with 2 samples.

Results

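The ATPase ring of the 19S regulatory particle of the proteasome is built from 6 subunits, which are encoded by *PSMC1*, *PSMC2*, *PSMC3*, *PSMC4*, *PSMC5* and *PSMC6*. These 6 genes, of 20163 protein-coding genes on chromosomes 1 to 22, X and Y, were chosen by name as the subunits of the ring, and the peaks assigned to them were those of an NRF1 ChIP-seq list with a centre within 20 kb of an annotated transcription start site (TSS) of the gene. The rule gave 6 peaks of 5683, exactly 1 for each gene. NRF1 here is the product of *NFE2L1*, a CNC-type transcription factor, and not nuclear respiratory factor 1.

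The list came from 1 ChIP library of HCT116 cells, a human colorectal carcinoma line, after 16 h in MG132 at 1 µM. MG132 blocks the proteolytic sites of the proteasome, and neither an untreated ChIP library nor the matching input was analysed here. All values thus describe occupancy under proteasome inhibition in 1 library, without a replicate error and at an unknown read depth. Each peak carries a score, read here as the MACS value −log10 p multiplied by 10, from the usual output of that program and from the lowest score in the list, 50.00, which would then correspond to a p-value of 1e-05.

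The subunits of the ring are AAA ATPases that use ATP to pull substrates apart and thread them into the 20S core particle, whose gate they help to open. They assemble as pairs, PSMC2 with PSMC1, PSMC5 with PSMC4 and PSMC6 with PSMC3, each escorted by its own chaperones. NRF1 is known as an activator of proteasome subunit genes when the proteasome is impaired, and it binds DNA together with small MAF proteins at antioxidant response elements (AREs). The ARE was searched for on both strands in the form TGACNNNGC or TGAGNNNGC, where N is any base, and a stricter full form, TGACTCAGC or TGAGTCAGC, holds the AP-1 core TGACTCA or TGAGTCA.

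The elements under the peaks are shown first, because the 6 genes differed from one another in them. Peaks of 5 genes held 9 AREs in all, none of them in the full form, and the peak of *PSMC1* held none. The lines give, 5′ to 3′ on the strand that reads TGA, 10 bases on each side of the 9 letters, which are in capitals, with hg19 positions of these 9 letters. For *PSMC2*, *PSMC4* and *PSMC6* the AREs closest in letters to the full form are shown, for *PSMC5* and *PSMC3* their single AREs, for *PSMC5* also a site that is no ARE but holds an AP-1 core, and for *PSMC1* the closest site that keeps TGAC or TGAG and lies nearer to the centre of the peak.
PSMC2, chr7:102988525-102988533, minus strand: gaggatcaggTGACCGAGCaccgccaggc
PSMC1, chr14:90722950-90722958, plus strand, no ARE: agatggtgagTGACTAAGGgtttctttcc
PSMC5, chr17:61905024-61905032, minus strand: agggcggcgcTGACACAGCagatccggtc
PSMC5, chr17:61905046-61905054, plus strand, no ARE: ccgccctcggTGAGTCAGGgcaaggctgg
PSMC4, chr19:40477099-40477107, minus strand: tcctccatagTGACCAAGCcggcctctgt
PSMC6, chr14:53174076-53174084, plus strand: cttctgcctcTGACAAAGCagaagccttt
PSMC6, chr14:53174152-53174160, minus strand: cagggccggaTGACAAAGCgccttgtccc
PSMC3, chr11:47447791-47447799, minus strand: gagagtccagTGACTCGGCaggagaagat

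All 6 ring genes had a peak within 20 kb of a TSS, while 3766 protein-coding genes (18.7%) had one by the same rule. All 6 also had it within 2 kb, against 6.03% of protein-coding genes, and within 500 bp, against 3.68%. Measured from the nearest annotated TSS, no peak stood just inside or just outside the limit of 20 kb. The farthest of the 6 centres was 120 bp from the nearest TSS of its gene, and the next peak beyond the limit was at least 61486 bp away, at *PSMC4*. The annotation lists between 5 TSSs (*PSMC4*) and 21 (*PSMC5*) for these genes, so positions below are also given from the TSS of the canonical transcript.

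The scores of the 6 peaks spanned 2.86-fold and had a median of 266.56. *PSMC3* had the highest score, 412.41, followed by *PSMC5* with 330.95, *PSMC6* with 308.61, *PSMC1* with 224.52, *PSMC2* with 215.23 and *PSMC4* with 144.19. All 6 lay above 97.21, the median of the 1122 peaks within 2 kb of a protein-coding TSS, and 5 of the 6 lay above their upper quartile. With 1 library, neighbours in this order cannot be told apart or shown to differ.

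**Figure D1:**
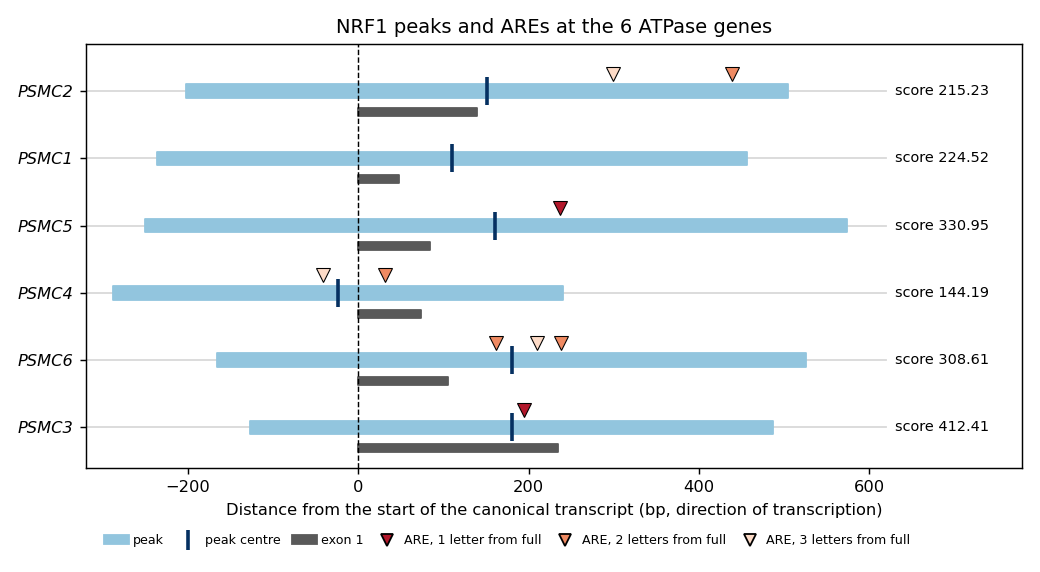
The peaks of the 6 ring genes, drawn by distance in bp from the start of the canonical transcript in the direction of transcription, with the peak as a blue bar, its centre as a dark tick, exon 1 in grey and AREs as triangles coloured by the number of letters that differ from the full form. All 6 peaks span the start of transcription, 5 centres lie 110 to 180 bp downstream of it, and *PSMC1* has no ARE.

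PSMC2 and PSMC1 form a pair of neighbours in the ring that is escorted by the chaperone PSMD5, and the C-terminal tail of PSMC1 is one of those that dock into the 20S core. *PSMC2* lies on the plus strand at chr7:102969017-103010793. Its peak, chr7:102987887-102988595, was 709 bp wide with a score of 215.23, rank 805 of the 5683 peaks, and 78.6% of the peaks within 2 kb of a protein-coding TSS scored no higher. The centre lay in intron 1, 151 bp downstream of the canonical TSS. Its 2 AREs were both downstream of that centre in intron 1, at 148 and 288 bp from it, so that none lay in the central 200 bp of the peak. The nearer ARE differed from the full form in 3 letters and the farther, shown above, in 2. The pseudogene *RPS29P16* also has a TSS within 2 kb of this centre.

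*PSMC1* lies on the plus strand at chr14:90722871-90741773, and its peak, chr14:90722661-90723353, was 693 bp wide with a score of 224.52 and rank 739. The centre lay in intron 1, 110 bp downstream of the canonical TSS. This was the only one of the 6 peaks without an ARE. Its best matches to the full form, 7 sites, differed from it in 2 letters, and 2 of the 7 kept TGAC or TGAG at the start. The first of these, shown above, carried C6A and C9G, with positions counted from 1 at the T of TGA, and lay 53 bp upstream of the peak centre in intron 1. The second, aaatgcttttTGAGTCGGGcaggtgaagg at chr14:90723317-90723325 on the plus strand, carried A7G and C9G and lay 314 bp downstream of the centre. In both, C9G alone keeps the site outside the ARE form.

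PSMC5 and PSMC4 form the pair that is escorted by PSMD10 and PAAF1, and the tail of PSMC4 is another that docks into the 20S core. *PSMC5* lies on the plus strand at chr17:61904512-61909386, and its peak, chr17:61904540-61905365, was the widest of the 6 at 826 bp, with a score of 330.95 and rank 336. The centre lay in intron 1, 161 bp downstream of the canonical TSS and 68 bp from the nearest annotated TSS of the gene. The divergent gene *FTSJ3*, whose product acts in ribosomal RNA maturation, also has a TSS within 2 kb of this centre, and the study's annotation of peaks lists the peak under *FTSJ3* and not under *PSMC5*. The other 5 ring genes are listed there under their own symbols. The whole peak lies within the annotated extent of *PSMC5*. That extent begins upstream of the canonical TSS, which is at chr17:61904791, and the left edge of the peak lies at −251 bp from this TSS. Whether the peak belongs to *PSMC5* or to *FTSJ3* was not tested.

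The *PSMC5* peak held 1 ARE, 76 bp downstream of its centre, which differed from the full form by T5A alone. The sequence beside it held further near matches. The plus-strand site shown above, 98 bp downstream of the centre, differed from the full form by C9G, its AP-1 core being intact, and the same core read on the other strand gave TGACTCACC, with G8C. A 4th near match, TGTGTCAGC with A3T, overlapped the ARE itself. The *PSMC5* peak was thus the only one of the 6 with more than 1 site at a single letter from the full form. These 4 sites overlap in pairs and are not 4 separate elements.

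*PSMC4* lies on the plus strand at chr19:40477072-40487671, and its peak, chr19:40476784-40477312, was the narrowest of the 6 at 529 bp and had the lowest score, 144.19, with rank 1540. Of the peaks within 2 kb of a protein-coding TSS, 67.3% scored no higher. It was the only one of the 6 whose centre lay upstream of the canonical TSS, by 24 bp. Its 2 AREs lay on either side of the TSS, 1 of them 42 bp upstream and the other 31 bp downstream in the 5′ UTR of exon 1. The upstream ARE differed from the full form in 3 letters and the downstream one, shown above, in 2.

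PSMC6 and PSMC3 form the pair that is escorted by PSMD9, and the tail of PSMC3 also docks into the 20S core. *PSMC6* lies on the plus strand at chr14:53173896-53195308, and its peak, chr14:53173752-53174444, was 693 bp wide with a score of 308.61 and rank 384. The centre lay in intron 1, 180 bp downstream of the canonical TSS. The peak held 3 AREs, more than that of any other ring gene, and all 3 lay in intron 1 within 58 bp of the centre, at 18 bp upstream, 30 bp downstream and 58 bp downstream. The outer AREs had the same 9 letters on opposite strands, TGACAAAGC, at 2 letters from the full form. The middle ARE, gccttagagaTGACCAGGCctagggccag at chr14:53174124-53174132 on the plus strand, was at 3 letters. An AP-1 core lay farther out, 271 bp downstream of the centre, and was not part of an ARE.

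*PSMC3* lies on the minus strand at chr11:47440320-47448024, and its peak, chr11:47447503-47448117, was 615 bp wide. Its score, 412.41, was the highest of the 6, at rank 206, and 92.4% of the peaks within 2 kb of a protein-coding TSS scored no higher. The centre lay at an annotated TSS (0 bp), in exon 1, 180 bp downstream of the canonical TSS. Its single ARE lay 15 bp from that centre and 195 bp downstream of the canonical TSS, in coding sequence of exon 1, and differed from the full form by A7G alone. This was the only ARE of the 9 in coding sequence.

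The 2 genes with an ARE at a single letter from the full form, *PSMC3* and *PSMC5*, had the highest scores of the 6, while *PSMC1*, without an ARE, ranked above *PSMC2* and *PSMC4*, which had 2 AREs each. The number of AREs and the score thus did not run in the same order. With 6 peaks from 1 library this is a description, and no test was run.

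Among the 9 AREs, 2 differed from the full form in 1 letter, 4 in 2 letters and 3 in 3 letters. The variable letter at position 4 was C in 7 and G in 2. The ARE read on the annotated strand of the gene in 3 cases and on the opposite strand in 6. Of the 9, 8 lay downstream of the canonical TSS, 6 were intronic and 2 were in exons, and 7 were within 100 bp of the centre of the peak. The base after the ninth letter was A in 5 AREs, and 4 of the 6 genes (*PSMC2*, *PSMC5*, *PSMC6* and *PSMC3*) had an ARE followed by A. Of the peaks within 2 kb of a protein-coding TSS, 58.6% had an ARE followed by A, a form that was searched for only after the sequences had been seen.

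An ARE was present in the peaks of 5 of the 6 genes (83.3%, 95% Wilson interval 43.6 to 97%), and in 85.2% of the 1122 peaks within 2 kb of a protein-coding TSS, so that the count was near the background. In windows of the same size and place at protein-coding TSSs, whether or not they held a peak, an ARE was present in 47.2% (window of *PSMC4*) to 60.9% (window of *PSMC5*).

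The full form was present in 0 of the 6 peaks (interval 0 to 39%). Of the peaks within 2 kb of a protein-coding TSS, 43.2% held it (40.4 to 46.1%), and of the 683 peaks within 500 bp, a background added after the data had been seen, 35.1% (31.7 to 38.8%). Among 302 peaks within 500 bp that were as wide as those of the ring genes, 529 to 826 bp, 40.4% held it. In windows of matching size at TSSs in general the full form was rare, at 1.05% to 1.46%. With a single mismatch allowed, a form also added after the data had been seen, 2 of the 6 peaks (33.3%, 9.68 to 70%) held a site, against 78.6% of the peaks within 2 kb of a protein-coding TSS and 73.6% of those within 500 bp. With 6 peaks these intervals are wide, and they cover counting error only. The 6 genes are the whole ring, chosen by name and not drawn as a sample of peaks. Whether the intervals overlap is therefore not a test, and no test of the difference was run.

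**Figure D2:**
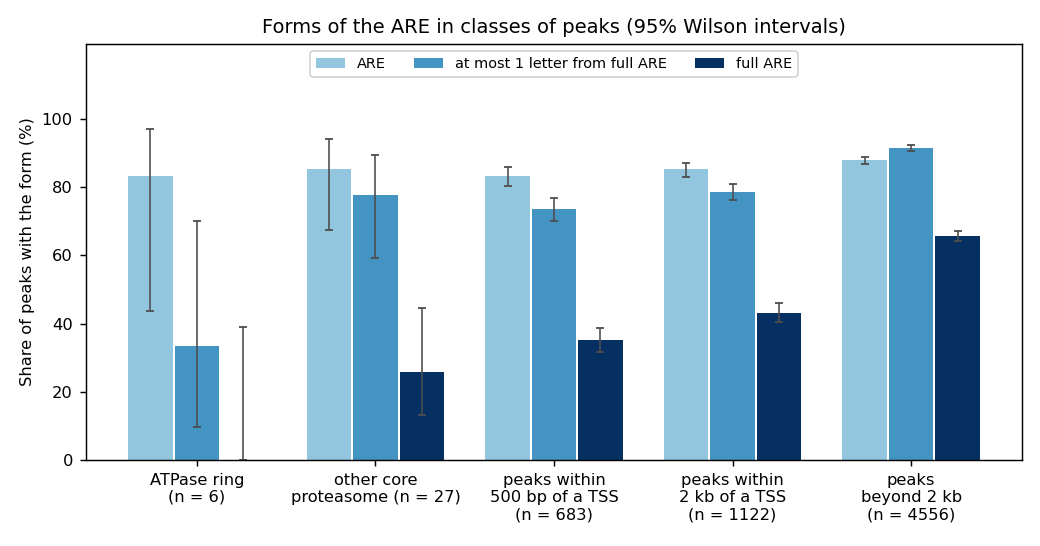
Share of peaks (%) that hold an ARE, a site with at most 1 letter different from the full ARE and a full ARE, in the 6 peaks of the ring genes, the 27 of the other core proteasome genes and 3 classes of peaks by distance to a protein-coding TSS, with 95% Wilson intervals. A site at 1 letter need not be an ARE, so the middle bar can exceed the left one, and the full ARE is at 0 of 6 in the ring genes and at 65.7% beyond 2 kb.

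Other promoter motifs were read in the same peaks. The GC box GGGCGG was present in all 6, in 44.4% of the peaks within 2 kb of a protein-coding TSS, and in 66.2% of those within 500 bp with matching width. The CCAAT box was present in 3, *PSMC2*, *PSMC5* and *PSMC3*, against 45.7% of the peaks within 2 kb and 50% of those of matching width. The ETS-type motif CCGGAAG was present in 3 as well, *PSMC2*, *PSMC1* and *PSMC6*, against 13.5% and 22.5% of the same classes, and in 9 of 27 peaks of the other core proteasome genes. An AP-1 core was present in 2, *PSMC5* and *PSMC6*, against 56.3% and 51.7%. Every full ARE holds this core, so its count is not separate from that of the full form. None of the 6 had TGC directly before an AP-1 core, as in one side of a palindromic MAF element, against 28.2% and 27.8%. Read on the other strand, that sequence is a full ARE followed by A. Its absence thus follows from the absence of the full form and is no further observation. The palindromic site of nuclear respiratory factor 1, which shares only the abbreviation, was found in none of the 6 and in 0.802% of the peaks within 2 kb and 1.32% of those of matching width. Of the 27 peaks of the other core proteasome genes, 22 held the GC box, 19 CCAAT and 11 an AP-1 core. In 3 of the 27, TGC stood directly before an AP-1 core, which is possible only in peaks with a full ARE. The share of all promoters, from 250 bp before to 50 bp after the canonical TSS, was 60.9% for the GC box, 35.9% for CCAAT, 14% for CCGGAAG and 3.57% for the AP-1 core. These windows are shorter than any of the 6 peaks and placed differently, so their shares are not directly comparable with the counts in the peaks. The peaks of the ring genes had a GC content of 53.0% (*PSMC2*) to 62.9% (*PSMC4*), and peaks within 500 bp of a protein-coding TSS had a median of 59.0%.

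The ARE nearest to the centre of each peak, taken with 2 bases on each side, was looked for in the other peaks within 2 kb of a protein-coding TSS. Only that of *PSMC3*, agTGACTCGGCag, recurred, in the peaks of *OSER1* (score 268.87), an oxidative stress responsive gene, and *APRT* (score 57.57), which encodes a purine salvage enzyme. The 9 letters alone recurred in 48 other such peaks for *PSMC5*, 32 for *PSMC3*, 13 for *PSMC6*, 6 for *PSMC4* and 3 for *PSMC2*.

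The peaks of the ring genes shared a place relative to the TSS. All 6 spanned the canonical TSS, 5 of the 6 centres lay downstream of it, and these 5 lay at 100 to 200 bp, a range set after the positions had been seen. Of 416 protein-coding genes with a peak centre within 500 bp of the canonical TSS, 188 (45.2%) had it downstream and 53 (12.7%) at 100 to 200 bp. The median over these genes was −28.5 bp, where minus is upstream, with quartiles of −210.25 and 119 bp. Downstream centres were also found in 23 of the 27 other core proteasome genes, 14 of them at 100 to 200 bp, so that this place was not limited to the ring. Exon 1 of the ring genes was 48 bp (*PSMC1*) to 235 bp (*PSMC3*) long, and 4 of the 5 downstream centres lay beyond it.

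**Figure D3:**
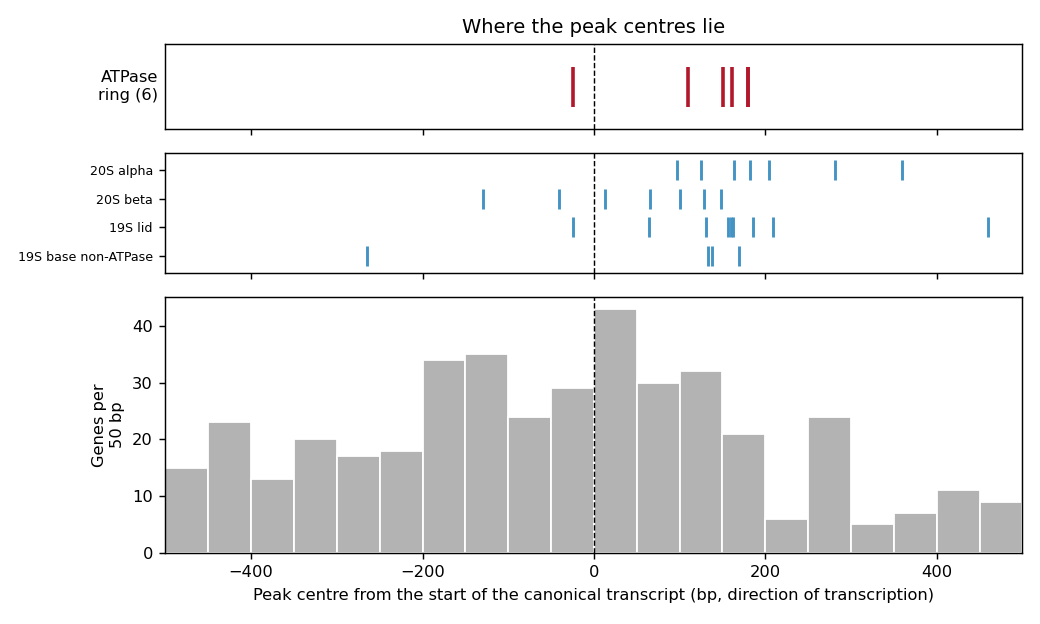
Distance in bp of peak centres from the start of the canonical transcript, in the direction of transcription, for the 6 ring genes (top), the other core proteasome genes by group (middle) and 416 protein-coding genes with a centre within 500 bp (bottom, counts per 50 bp). Of the 6 ring genes 5 lie 110 to 180 bp downstream, while the counts of all genes spread over both sides of the start.

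The other groups of proteasome genes were set beside the ring. All 7 genes of the alpha rings of the 20S core, all 7 of its beta rings, all 9 of the 19S lid and all 4 non-ATPase genes of the 19S base had a peak within 2 kb of a TSS. The median score was 305.06 for the alpha genes, from 90.61 (*PSMA2*) to 681.29 (*PSMA1*), and 296.08 for the beta genes, from 223.26 (*PSMB3*) to 614.43 (*PSMB7*). It was 430.05 for the lid genes, from 119.94 (*PSMD13*) to 1128.13 (*PSMD14*, the deubiquitinase of the lid), and 607.38 for the non-ATPase genes of the base, from 380.09 (*PSMD4*, a ubiquitin receptor) to 925.88 (*PSMD1*, a scaffold). The ranges overlapped that of the ring in each case. Of these 27 genes, 20 had a score above the ring's median of 266.56, 11 had one above that of *PSMC3* and 2, *PSMA2* and *PSMD13*, had one below that of *PSMC4*.

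The forms of the ARE were counted in the same groups. An ARE was present in the peaks of 23 of the 27 other core genes (85.2%), and the full form in 7 of 27 (25.9%, 13.2 to 44.7%). The full form was in 2 of 7 alpha genes, 0 of 7 beta genes, 3 of 9 lid genes and 2 of 4 non-ATPase genes of the base. A site with at most 1 letter different was in 21 of 27 (77.8%, 59.2 to 89.4%), and among the groups in 4 of 7, 4 of 7, 9 of 9 and 4 of 4, beside 2 of 6 in the ring. The interval of the 6 ring genes, 9.68 to 70%, is wide, and no test of the difference from the 27 was run.

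**Figure D4:**
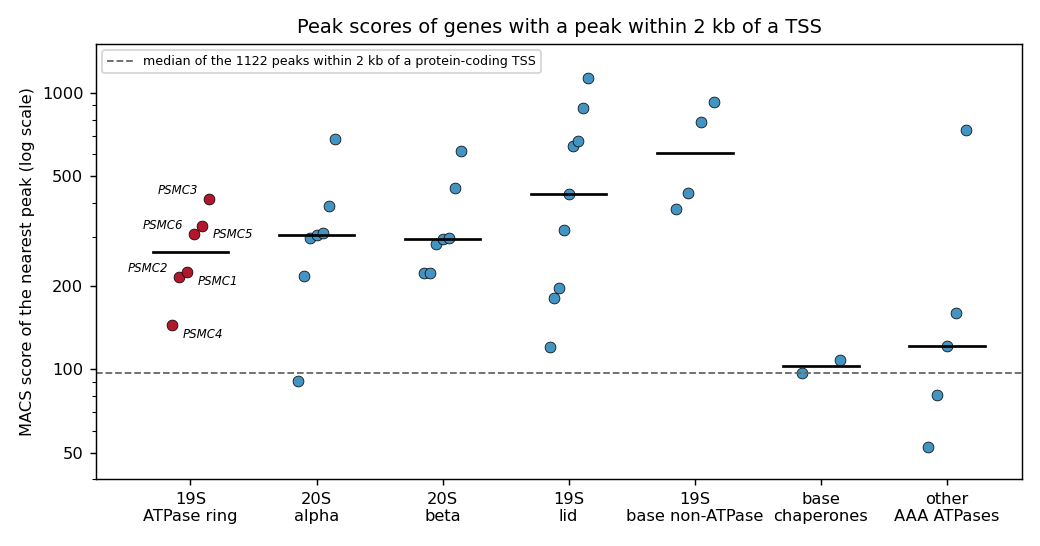
MACS score of the peak nearest to each gene, on a log scale, for genes with a peak within 2 kb of a TSS, by group, with the median of each group as a bar. The ring genes lie between 144.19 and 412.41, all above the dashed median of 97.21, and their range overlaps those of the other core groups.

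The chaperones that build the base were compared with the ring because they act on its pairs and leave before the particle is complete. *PSMD5*, the chaperone of PSMC2 and PSMC1, and *PSMD10*, a chaperone of PSMC5 and PSMC4, had no peak within 20 kb. *PAAF1*, the other chaperone of that pair, had a peak with a score of 97.09. Its centre lay 1926 bp from the nearest TSS and 3704 bp downstream of the canonical TSS. *PSMD9*, the chaperone of PSMC6 and PSMC3, had a peak with a score of 108.16 that held a full ARE, centred at −271 bp from the canonical TSS. Thus 2 of the 4 chaperone genes had a peak within 2 kb of a TSS, beside 6.03% of all protein-coding genes. Both scores were below the lowest of the ring.

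Other AAA ATPase genes, chosen by membership in the family and not for a role in the proteasome, were compared next. Of 21, 7 had a peak within 20 kb and 5 within 2 kb, beside 18.7% and 6.03% of all protein-coding genes. *VCP*, the segregase that extracts ubiquitinated proteins and hands them to the proteasome, had a score of 730.46 at rank 34, with a centre 91 bp from a TSS, above all 6 ring genes. The others were *KATNAL1* (159.19, at 1172 bp), a microtubule-severing enzyme, *ATAD3A* (121.80, at 449 bp), a mitochondrial membrane protein, *TRIP13* (80.56, at 1883 bp), which remodels HORMA domain proteins, and *NVL* (52.32, at 1055 bp), which acts in ribosome assembly. Of these 5, *VCP* and *ATAD3A* had a centre within 500 bp of a TSS, where all 6 ring genes had theirs. From the canonical TSS, the centre of *TRIP13* lay 19792 bp downstream and that of *NVL* 59202 bp downstream. Both thus count as within 2 kb only through another annotated TSS of the gene. *SPAST* (5257 bp) and *PEX6* (7856 bp) had a peak only beyond 2 kb, and *NSF*, *KATNA1*, *FIGN*, *FIGNL1*, *VPS4A*, *VPS4B*, *AFG3L2*, *SPG7*, *YME1L1*, *BCS1L*, *ATAD1*, *ATAD2* and *SPATA5* had none within 20 kb.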

How the data were processed

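Chromatin of MG132-treated HCT116 cells was immunoprecipitated for NRF1, and 1 library was analysed. Per the submitters' processing notes, CASAVA 1.8.2, Bowtie2 2.2.6 and MACS 1.4.2 were used, and reads were mapped to hg19. The authors deposited peak intervals with a score, read here as the MACS value 10 × −log10 p, a scale that the sources used here do not state. The MACS options and its control are not given in the sources used here. Start positions are printed 1-based.

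The members and lists were chosen with earlier results of these data known. TSSs, exons and canonical transcripts came from GENCODE 44 on GRCh37, the coordinates of hg19, and sequence from that genome. Distances run from the peak centre. Motifs were read on both strands in the 5678 peaks on chromosomes 1 to 22, X and Y. Named genes were the 6 members, genes with a TSS within 2 kb of a member's peak, the highest, lowest and absent gene of each list, all 4 chaperones, the AAA ATPases with a peak within 2 kb, and genes with an identical ARE. No test was run, since there is 1 library. The motif search and distances were tested on simulated data. Python 3.11.15, scipy 1.17.1, pysam 0.24.0 and matplotlib 3.10.9 were used. Alternatives were other windows, scores, TSSs and motif forms. Array values of the study were not used, and a withheld item is not reported here.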

Additional observations from a re-analysis of the deposited data

How the results depend on the processing

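All 6 ring genes kept a peak, and the number of peaks stayed at 6, with a score of at least 100, windows of 2 kb or 500 bp, distances from the nearest edge and the gene start alone, and the number of peaks also after merging intervals within 500 bp. With the gene start alone *PSMC2* stayed by a narrow margin, its peak centre lying 19224 bp from the start of the gene record. The share of protein-coding genes with a peak moved more, from 18.7% to 9.45% with a score of at least 100, 6.03% within 2 kb, 3.68% within 500 bp and 13% with the gene start alone, and was 18.8% from the edge. Of the ring genes, 5 had an ARE, 0 in the full form and 2 with at most 1 letter different, a form added after the data were seen. An ARE was found in 4 in the central 200 bp and in 4 with A required after it. For the central 200 bp no share over other peaks is given here, so that count cannot be set against a background. The highest-scoring peak in place of the nearest gave the same 5 genes with an ARE and the same median score, 266.56, since each gene has 1 peak. Leaving out each gene in turn gave medians of 224.52 to 308.61. No paired analysis was possible because there is 1 library.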

Other observations

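The annotation holds 15 pseudogenes named after a ring gene, 13 of *PSMC1* and 2 of *PSMC2*. None had a peak centre within 2 kb, and 1 had one within 20 kb, at 14119 bp. How reads that map to several copies were handled is not given in the sources used here.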
